A study of Arabidopsis thaliana with 4 samples.

Results

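The listed sites of the MADS domain transcription factor FRUITFULL (FUL) near the core genes of auxin signalling in the Arabidopsis pistil and silique are described here. The genes are 29 *Aux/IAA* genes, 15 genes for AUXIN RESPONSE FACTORs (*ARF*) and 5 genes for the TIR1/AFB receptors, 49 of the 27444 protein-coding genes on chromosomes 1 to 5. Every listed FUL site was taken whose maximum fell in the window of such a gene, from 3000 bp before its start codon to 1000 bp past its stop codon, whatever its score. This gave 16 of the 2831 sites of the deposited list, at 13 of the 49 genes. The 13 genes are 8 *Aux/IAA* genes, 4 *ARF* genes and *TIR1*. The families were chosen by name, with earlier results of these data known.

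The chromatin came from pistils and siliques of flower stages 12 to 16 of *ful-1* mutants in a mixed background, given as Col/Ler in the labels (the Col accession is Col-0 in the methods of the study). These plants carried *pFUL:FUL-GFP*, so that the tagged protein was made under the *FUL* promoter in the absence of functional FUL. Chromatin bound by the fusion protein was pulled down through its GFP tag with an antibody in 2 biological replicates, and 2 input samples of the same genotype and tissue, sequenced without precipitation, served as controls. All 4 samples therefore shared the mutation, the transgene and the tissue, and the labels give no untagged or wild-type sample. The deposited list gives each site 1 score for both replicates together, which is the authors' measure of enrichment over the input. No spread between replicates can be computed from it, the depth per library is unknown, and strong binding in few cells cannot be told apart from weak binding in many.

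Auxin acts by removing repressors. The F-box proteins TIR1 and AFB bind auxin together with an Aux/IAA protein, which is then ubiquitinated and degraded, and this releases the ARF proteins that the Aux/IAA had kept in check. ARFs bind auxin response elements in the DNA, and many *Aux/IAA* genes are themselves induced by auxin through such elements, which makes a negative feedback loop. In the fruit, auxin signalling is known for its role in fruit set, in the growth of the valves and in the apical to basal patterning of the gynoecium, while FUL itself is required for valve growth. FUL belongs to the MADS domain proteins, which bind the CArG box, CC followed by 6 A or T bases and GG.

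The sequences at the strongest sites are shown first, since they hold no exact CArG box and several of them hold other short motifs. They were read from the TAIR10.1 genome of RefSeq, run 5′ to 3′ along the strand of the gene, and are in lower case. A single capital marks the base of the listed maximum, and runs of capitals mark the auxin response element cores TGTCTC or TGTCGG in either direction, so that GAGACA and CCGACA are the same elements read on the other strand. The first set holds the *Aux/IAA* sites with scores of at least 5.6 and the promoter site of *IAA19*, which was added after its motifs had been seen. The stretch of *IAA4* lies in its 5′ UTR and is therefore short.
IAA4, chr5:17550241-17550270, forward strand: GttgctgctactgtttactacCCGACAgct
IAA16, chr3:1291199-1291305, reverse strand: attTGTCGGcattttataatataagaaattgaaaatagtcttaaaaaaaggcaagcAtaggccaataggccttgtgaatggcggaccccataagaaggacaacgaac
IAA8, chr2:9635244-9635344, forward strand: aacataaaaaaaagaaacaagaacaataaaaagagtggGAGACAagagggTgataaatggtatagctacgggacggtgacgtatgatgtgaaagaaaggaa
IAA19, chr3:5263788-5263888, forward strand: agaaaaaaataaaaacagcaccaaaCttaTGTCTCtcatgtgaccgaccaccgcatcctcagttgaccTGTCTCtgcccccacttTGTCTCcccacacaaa

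The second set holds the *ARF* sites with scores of at least 5.6 and the site of *TIR1*, which is the highest-scoring one of its family and lies in a 5′ UTR. The stretch of *ARF11* ends before its annotated transcript start.
ARF3, chr2:14331204-14331404, reverse strand: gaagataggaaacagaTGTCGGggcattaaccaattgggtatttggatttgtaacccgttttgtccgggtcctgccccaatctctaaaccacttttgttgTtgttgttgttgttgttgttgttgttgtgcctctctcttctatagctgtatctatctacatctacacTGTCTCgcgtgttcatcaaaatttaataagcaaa
ARF11, chr2:19104572-19104631, forward strand: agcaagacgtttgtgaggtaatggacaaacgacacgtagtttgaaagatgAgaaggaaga
ARF2, chr5:24909531-24909631, forward strand: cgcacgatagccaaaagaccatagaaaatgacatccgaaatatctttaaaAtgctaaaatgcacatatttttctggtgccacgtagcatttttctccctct
TIR1, chr3:23276556-23276584, reverse strand: agtcgataagataAtctcccgctttcatt

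A site of any score was found at 13 of the 49 genes, or 26.5% (Wilson 95% interval 16.2 to 40.3%). Under the same rule 14.0% of all protein-coding genes had a site (3830 of 27444). The share was 27.6% for the *Aux/IAA* genes (8 of 29, interval 14.7 to 45.7%), 26.7% for the *ARF* genes (4 of 15, 10.9 to 52.0%) and 20.0% for the receptor genes (1 of 5, 3.62 to 62.5%). The intervals of the 3 families overlap widely, and that of each *ARF* and receptor share includes the share of all protein-coding genes. With the higher limit of 5.6 on the score, 6 of 49 genes (12.2%, 5.73 to 24.2%) had a site, against 4.47% of all protein-coding genes. These were 3 *Aux/IAA* and 3 *ARF* genes and no receptor gene. The sites in the windows of *IAA1*, *IAA2*, *IAA9*, *IAA19*, *IAA31*, *ARF6* and *TIR1* all scored below this limit. The limit is the lowest score among the loci that the study lists as targets. At or above the median score of the list it was 10 genes, against 7.97%, and at or above the upper quartile 5 genes, against 3.94%. When each site was given to its nearest protein-coding gene alone, 12 of the 49 genes had one, against 8.21%. Windows of 2000 bp before and 500 bp past the gene gave 12 genes (10.6% of all genes), 1000 bp before the gene gave 9 (7.48%) and windows set from the transcript ends gave 15 (15.0%). With the midpoint of the site, or any overlap, in place of the maximum it was 13 genes, against 13.9% and 14.3%. The intervals cover counting error only, and no test was made because the genes were chosen with earlier results of these data known.

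**Figure D1:**
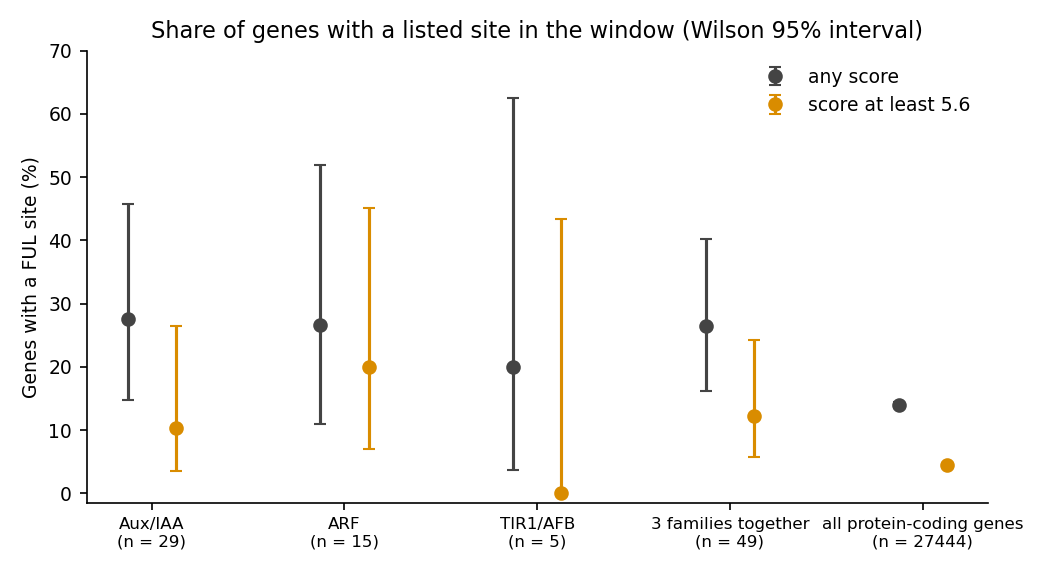
Share of genes with a FUL site in the window, in percent, for the 3 families, for the families together and for all protein-coding genes, where points are shares, bars are Wilson 95% intervals, dark points count sites of any score and orange points those with a score of at least 5.6. The 3 families lie between 20.0 and 27.6% at any score with wide, overlapping bars, above the 14.0% of all genes.

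The windows differ in length, because *ARF* genes are long. The coding span, from start to stop codon with introns, had a median of 3630 bp in the *ARF* genes, 2112 bp in the receptor genes and 1150 bp in the *Aux/IAA* genes. Per 100 kb of window there were 6.01 sites for the *Aux/IAA* genes (9 sites, exact Poisson 95% interval 2.75 to 11.4), 5.36 for the *ARF* genes (6 sites, 1.97 to 11.7) and 3.25 for the receptor genes (1 site, 0.082 to 18.1). For all protein-coding genes the density was 2.81. The value for all 49 genes, 5.47, had an interval of 3.13 to 8.88 that lies above it, while the interval of each family alone includes it.

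Most of the sites lay before the genes. Of the 16 maxima, 13 preceded the start codon, 2 fell in the coding span and 1 came after it. The first 1000 bp upstream held 7 of them, the next 1000 bp held 4 and the last held 2. In the first 1000 bp this is 14.3 sites per 100 kb (exact Poisson 95% interval 5.74 to 29.4), against 3.94 for all protein-coding genes. In the coding span the density was 2.07 (0.251 to 7.48), and that of all genes was 2.33. By the annotated transcripts, 10 of the 16 maxima were in upstream sequence, 3 in 5′ UTR exons (*IAA4*, *ARF6* and *TIR1*), 1 in a coding exon (*IAA2*), 1 in an intron (*ARF2*) and 1 downstream (*IAA31*).

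**Figure D2:**
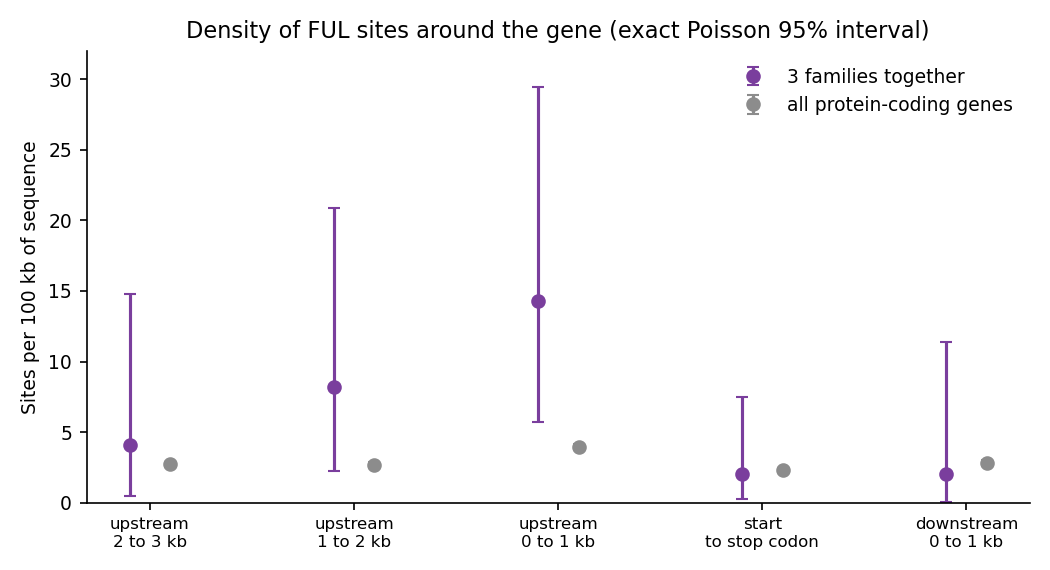
Density of listed site maxima per 100 kb of sequence in 5 stretches around the gene, for the 49 auxin signalling genes and for all protein-coding genes, with exact Poisson 95% intervals as bars. In the first 1000 bp upstream the 49 genes reach 14.3 sites per 100 kb against 3.94, and in the other stretches the bars include the value of all genes.

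**Figure D3:**
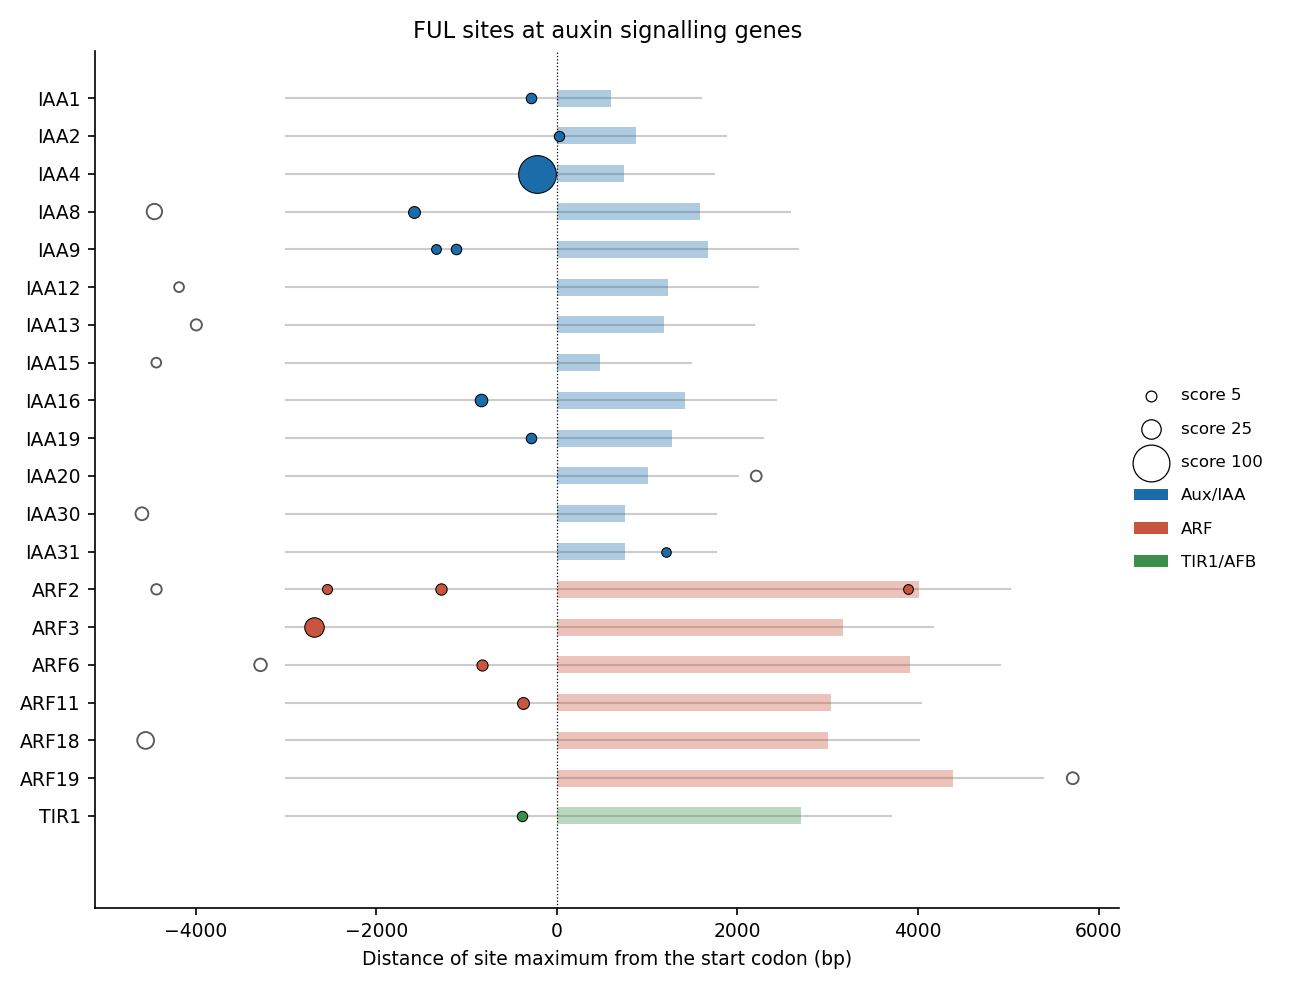
Position of each FUL site maximum relative to the start codon, in bp, with 1 line for each gene that has a site within or close to its window, where grey lines are the windows, coloured bars the coding spans, filled circles sites in the window and open circles sites beyond it, and the area of a circle grows with the score. The site of *IAA4*, 224 bp before the start codon, has by far the largest circle.

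The scores of the 16 sites ran from 3.0 to 105.57 with a median of 4.43, which is also the median of the whole list. Of the 16 sites, 6 (37.5%) had a score of at least 5.6, against 29.9% of the list. Without the *IAA4* site the highest score was 25.16, and the median stayed at 4.43. By this score *IAA4* and *ARF3* stood above the other genes, whose sites all scored between 3.0 and 8.14.

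**Figure D4:**
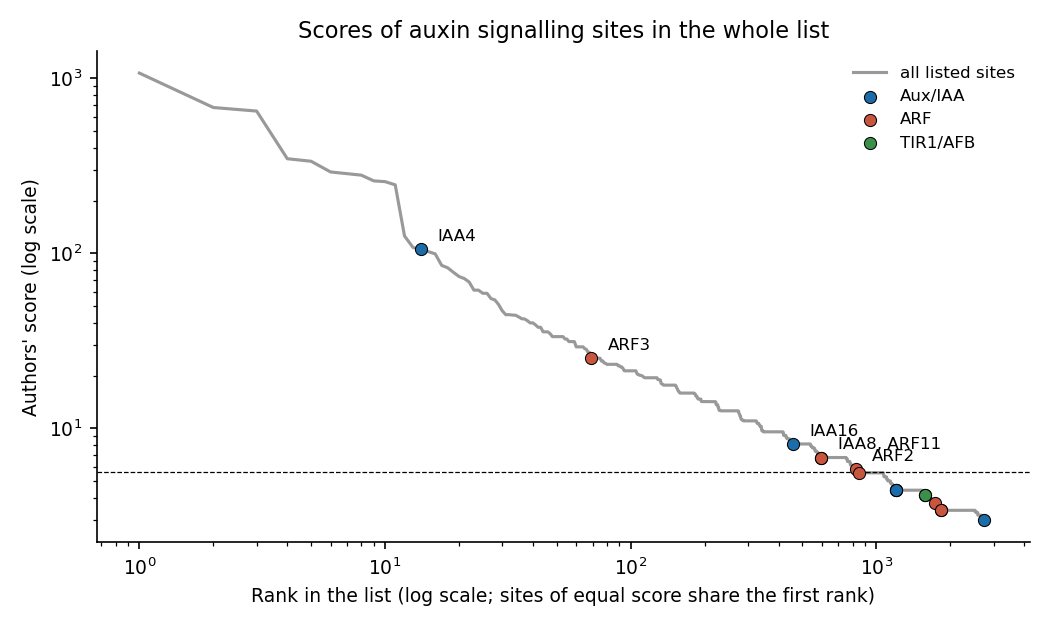
Score of each listed site against its rank, both on log scales, with the 16 sites of the auxin signalling genes marked by family and the limit of 5.6 drawn as a dashed line. *IAA4* is at rank 14 and *ARF3* at rank 69, and the other sites follow from rank 457 downwards.

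*IAA4* (AT5G43700, annotated as *ATAUX2-11*) encodes a short-lived repressor of the Aux/IAA family and belongs to the genes induced early by auxin. The gene is annotated on the forward strand of chromosome 5 (17550179 to 17551715). Its site spans 17549954 to 17550461, has a score of 105.57 and ranks 14th of the 2831 sites. By the highest score in the window *IAA4* was 6th among the 3830 protein-coding genes with a site. With 507 bp the site is also the 55th longest, and it reaches from 511 to 4 bp upstream of the start codon, across the proximal promoter and most of the 5′ UTR. The maximum lay in the 5′ UTR, 62 bp behind the transcript start and 224 bp before the start codon. No other protein-coding gene was in reach. *IAA3* (*SHY2*), the closest relative of *IAA4*, had no site of any score.

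*IAA16* (AT3G04730), a repressor of the clade that also holds *IAA7*, *IAA14* and *IAA17*, was the next highest of the family. Its site on chromosome 3 from 1291110 to 1291409 has a score of 8.14, a score that 82 sites of the list share, and the maximum lay 834 bp upstream of the start codon. The start codon of AT3G04740 (*SWP*) was also in reach of this site, 2788 bp away. None of the other 3 genes of the clade had a site. A count of 1 of 4 is not set apart from the 14.0% of all protein-coding genes with a site.

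*IAA8* (AT2G22670) and *IAA9* (AT5G65670) are close relatives, and the counterpart of *IAA9* in tomato is known as a repressor of fruit set. The site of *IAA8*, on chromosome 2 from 9635203 to 9635353, has a score of 6.81, and its maximum was found 1583 bp before the start codon. *IAA9* had a pair of sites on chromosome 5, with scores of 3.4 at 1333 bp and 4.43 at 1111 bp upstream. Because the annotated transcript of *IAA9* begins far upstream, these maxima are only 278 and 56 bp before its transcript start. Both genes thus had their sites in the second kb before the start codon, while *IAA27*, the third gene of this clade, had none.

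*IAA1* (AT4G14560) and *IAA2* (AT3G23030), another pair of relatives and both early auxin-inducible genes, had sites next to the start codon. The *IAA1* site, on chromosome 4 from 8360892 to 8361017, has a score of 4.43 and its maximum 290 bp upstream. The *IAA2* site, on chromosome 3 from 8181857 to 8182038, has a score of 4.18, and its maximum lay 25 bp behind the first base of the start codon, in the first coding exon. A neighbouring gene was in reach of each of these sites, at 1233 bp for *IAA1* and at 2178 bp for *IAA2*, and the *Aux/IAA* gene was the nearer one.

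*IAA19* (AT3G15540), which acts in the tropic bending of the hypocotyl, had a site with a score of 4.43 on chromosome 3 from 5263772 to 5263908, and the maximum was 287 bp before the start codon. Its relatives *IAA5* and *IAA6* had none. The last of the family, *IAA31* (AT3G17600), had the weakest of the 16 sites, with a score of 3.0 and a length of 4 bp, 449 bp downstream of the stop codon. The start codon of AT3G17590 (*BSH*) lay 241 bp from this maximum and was nearer than *IAA31*. *IAA31* is also one of the 6 *Aux/IAA* genes of this set whose proteins lack a canonical degron, the motif that TIR1 binds. The other 5, *IAA20*, *IAA30*, *IAA32*, *IAA33* and *IAA34*, had no site, and 7 of the 23 remaining genes had one. With 14.0% of all protein-coding genes having a site, 1 of 6 is close to that share, and the difference between these groups was not tested. These clades and groups were formed after the sites had been seen, and the counts of the clades are to be read against the same 14.0%.

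The other 21 *Aux/IAA* genes had no listed site in their windows, which besides those named concerns *IAA10*, *IAA11*, *IAA12*, *IAA13*, *IAA15*, *IAA18*, *IAA26*, *IAA28* and *IAA29*. The lowest score listed is 2.99, and weaker enrichment is not detectable in it.

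Among the *ARF* genes, *ARF3* (AT2G33860, annotated as *ETT*) had the strongest site. ARF3 patterns the gynoecium along its apical to basal axis and lacks the domain through which other ARFs bind Aux/IAA proteins. The site lies on chromosome 2 from 14331131 to 14331562, has a score of 25.16 (rank 69, shared by 7 sites) and a length of 431 bp. Its maximum was 2326 bp before the transcript start and 2691 bp before the start codon, and no other protein-coding gene had it in reach. As the sequence shows, the maximum lies in a run of the trinucleotide TTG, which was examined after it had been seen. This perfect run of 34 bp was the longest trinucleotide repeat within 100 bp of any of the 2831 maxima, where the median was 7 bp and the longest at the other sites of these genes was 13 bp. The authors kept only uniquely mapped reads, and what the repeat does to the score was not tested.

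*ARF2* (AT5G62000), a repressor that limits seed size and organ growth, had 3 sites on chromosome 5, more than any other of the 49 genes. The middle one, from 24909504 to 24909675, scores 5.85, with its maximum 1278 bp before the start codon. The others have scores of 3.73 at 2543 bp upstream and 3.4 in an intron, 3889 bp behind the start codon. Another gene was in reach of each. The outermost maximum falls 68 bp behind the start codon of the neighbouring AT5G61997, within its coding span. The middle one is 1197 bp upstream of that gene and so slightly nearer to it than to *ARF2*. The maximum in the intron is 1464 bp upstream of the heat shock factor gene AT5G62020 (*HSFB2A*).

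*ARF11* (AT2G46530) had a site with a score of 6.81 on chromosome 2 from 19104622 to 19104719, 10 bp before the transcript start and 371 bp before the start codon. *ARF6* (AT1G30330), an activator that acts with *ARF8* in stamen elongation and gynoecium maturation, had a site with a score of 5.57 on chromosome 1 from 10690759 to 10691001. Its maximum lay in the 5′ UTR, 823 bp upstream of the start codon. This score is the next one in the list below the limit of 5.6, and 222 sites share it.

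Grouped by the known classes of ARFs, 1 of the 5 activators (*ARF6* of *ARF5*, *ARF6*, *ARF7*, *ARF8* and *ARF19*) had a site, as did 3 of the 7 members of the class B repressors (*ARF2*, *ARF3* and *ARF11*, but not *ARF1*, *ARF4*, *ARF9* and *ARF18*). None of the 3 genes targeted by miR160, *ARF10*, *ARF16* and *ARF17*, had one. The 3 *ARF* genes with sites of at least 5.6 were all of class B, which is the largest class. The site of the activator *ARF6* had the next score below that limit, 5.57, and that of *ARF2* above it was slightly nearer to another gene. Of the 3 genes targeted by the small RNA tasiR-ARF, *ARF2* and *ARF3* had a site and *ARF4* did not. Among all protein-coding genes the share was 14.0% at any score and 4.47% at a score of at least 5.6, and in classes this small a count of 0 or 1 is not set apart from it. No difference between the classes was tested, also not for class B, and the classes were chosen after the sites had been seen.

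Of the auxin receptor genes, *TIR1* (AT3G62980) had a site, with a score of 4.18 on chromosome 3 from 23276564 to 23276571. It is only 7 bp long, and its maximum lay in the 5′ UTR, 59 bp behind the transcript start and 390 bp before the start codon. *AFB1* (annotated as *GRH1*), *AFB2*, *AFB3* and *AFB5* had none.

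Several sites lay just beyond the windows. The closest with a score of at least 5.6 was 281 bp outside, 3281 bp upstream of *ARF6*, with a score of 8.14. *ARF6* was the nearest protein-coding gene of that site, too, so that the window leaves out the stronger of a pair of sites on its upstream side. A site with a score of 14.22 lay 4456 bp upstream of *IAA8*, one with 8.71 lay 4594 bp upstream of *IAA30* and one with 17.65 lay 4553 bp upstream of *ARF18*. At the other end, a site with a score of 6.81 was found 1330 bp downstream of the stop codon of *ARF19*, in a coding exon of the neighbouring gene. For these last 4 sites another protein-coding gene was nearer. The study's own list of target loci nevertheless gives *IAA8* the score of 14.22. Just inside the windows the outermost sites were those of *ARF3* at 2691 bp and of *ARF2* at 2543 bp upstream, and that of *IAA31* at 449 bp downstream.

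The sequence within 100 bp of each maximum (201 bp) was searched for short motifs on both strands. The exact CArG box was found at 0 of the 16 sites, which allows a share of up to 18.8%, and at 135 of all 2831 sites (4.77%). With so few sites a share like that of the list would not be detectable. None was found within the listed start and end of the sites either, a stretch that is shorter than 201 bp for most of them. With 1 mismatch allowed, a box was found at 3 of the 16 sites (18.8%, Wilson 95% interval 6.59 to 43.0%), against 32.1% of the list. These were the sites of *IAA4* and *IAA31* and the outermost one of *ARF2*. Such a box was also found in 23.25% of 5536 windows of the same length placed 3000 bp from a site. Within the listed start and end it was left at 1 of the 16 sites, against 25.9% of the list. At *IAA4* the sequence is CCAAAAAAGT, 86.5 bp from the maximum towards the start codon.

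CArG boxes were not missing from the genes as such. In the 3000 bp upstream of the start codon, 14 of the 49 genes (28.6%, Wilson 95% interval 17.9 to 42.4%) had at least 1 exact box, against 18.8% of all protein-coding genes. Of the 13 genes with a FUL site 4 had a box (*IAA1*, *IAA2*, *IAA31* and *ARF3*), and of the 36 without a site 10 had one. The boxes were far from the listed maxima. The closest belonged to *ARF3*, the sequence CCATTAATGG at 1555 bp upstream of the start codon, and lay 1140.5 bp from the maximum of its site.

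The auxin response element cores were frequent at these sites. TGTCTC was found at 5 of the 16 sites (31.3%, interval 14.2 to 55.6%), against 14.4% of the list, and TGTCGG at 5 (31.3%), against 8.12%. Within 50 bp of the maximum TGTCGG was left at 2 sites, against 4.1% of the list. Either was present at 8 of the 16 sites (interval 28.0 to 72.0%), against 21.4% of the list and 14.6% of 5536 windows of the same length placed 3000 bp from a site. By family it was 6 of the 9 *Aux/IAA* sites (66.7%, 35.4 to 87.9%), 2 of the 6 *ARF* sites and not the *TIR1* site. In the 3000 bp upstream of the start codon, TGTCTC occurred in 89.8% of the 49 genes and in 81.2% of all protein-coding genes. The interval for TGTCTC at the sites includes the share of the list. The count of either core was not planned, and no comparison with proximal promoters alone was made.

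The *IAA19* site stood out by this measure, with 3 copies of TGTCTC in the same direction, beginning at 283, 244 and 227 bp upstream of the start codon. Their centres lay 6.5, 45.5 and 62.5 bp from the maximum, and no other of the 2831 sites had 3 copies within 100 bp. This count over the list was not planned, and the number of copies was taken from the *IAA19* site itself. *IAA8* had 1 copy, read as GAGACA, with its centre 9.5 bp from the maximum. *IAA1* had 1 of each core. At *IAA4* the core CCGACA lay 23.5 bp from the maximum, inside the 5′ UTR. *IAA2* and *IAA16* also had TGTCGG, whereas neither *IAA9* site had a core. The site of *ARF3* had both cores, at 69.5 and 81.5 bp to either side of the maximum, and that of *ARF2* in the intron had TGTCTC. The G-box CACGTG, to which bHLH and bZIP proteins bind, was found at 2 of the 16 sites, the outermost of *ARF2* and that of *TIR1*, which is 12.5% and close to the 13.1% of the list. A motif match is a description of the sequence and not evidence of what binds there.

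**Figure D5:**
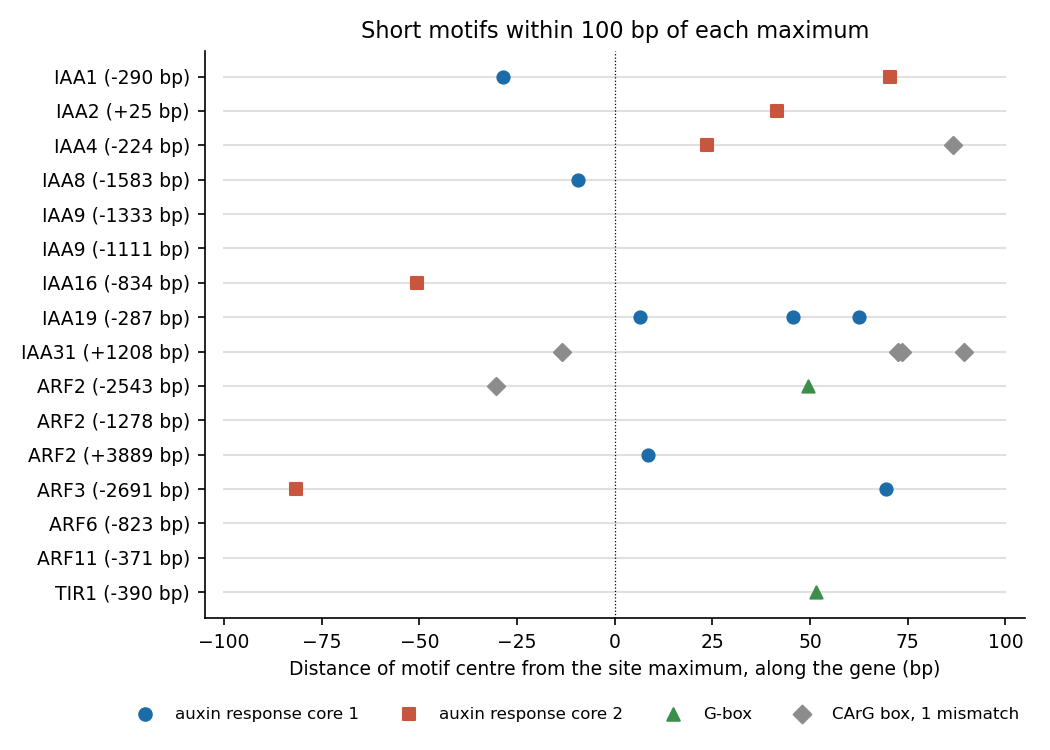
Motifs within 100 bp of the maximum of each of the 16 sites, in bp from the maximum along the direction of the gene, with the distance of the maximum from the start codon beside each gene name, where circles are TGTCTC (core 1), squares TGTCGG (core 2), triangles the G-box and diamonds a CArG box with 1 mismatch, and no exact CArG box was found. The 3 circles of *IAA19* lie between 6.5 and 62.5 bp behind its maximum.

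The other parts of the pathway were looked at with lists of 39 further genes, whose counts are to be read against the 14.0% of all protein-coding genes with a site. The lists are so short that a count of 0 or 1 is not set apart from that share. None of the 9 genes for the SCF ubiquitin ligase and its RUB modification had a site of any score, among them *ASK1*, *CUL1* and *AXR1*, nor had any of the 5 *TOPLESS* co-repressor genes through which Aux/IAA proteins silence their targets. Of the 9 *ARF* and *AFB* genes outside the set, *AFB4* alone had a site, with a score of 5.0 in a coding exon. The 5 genes for the TMK receptor kinases and ABP1 gave 1, at *TMK2*. Among early response genes, 4 of the 8 *GH3* genes, whose enzymes conjugate auxin to amino acids, had a site. The highest belonged to *GH3.3*, with a score of 68.54 (rank 22) at 266 bp upstream of the start codon, followed by *GH3.5* with 8.14. The study's list of target loci gives the score of 68.54 for *GH3.3* and also for a neighbouring cytochrome P450 gene. The highest scores at *GH3.1* and *GH3.9* were 3.4 and 3.0, close to the lowest score listed. Of 3 *LBD* genes that ARFs activate, *LBD18* had sites, the higher with a score of 4.43. In all, 7 of the 39 genes (17.9%) had a site, close to the 14.0% of all protein-coding genes, and 2 of them had one at a score of at least 5.6, against 4.47% of all genes. Like that of *IAA4*, the maximum at *GH3.3* thus lay in the first 1000 bp upstream.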

How the data were processed

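ChIP-Seq was performed by the authors on pistils and siliques in 2 ChIP replicates with 2 input samples. Alignment to TAIR9 was done by them with SOAPv2, without gaps and with up to 2 mismatches. Reads with 1 position were kept, those from plastids and mitochondria were discarded, and peaks were called with CSAR. Versions and CSAR settings are not given in the sources used here. The deposited list holds, for each site, its start, end and maximum and a single score of the authors for both replicates, without an error, a false discovery rate or a number of reads. The depth per sample is therefore unknown.

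Coordinates are those of the list, counted from 1. Genes and sequences come from TAIR10.1 of RefSeq, which rests on the same chromosome assembly. As a check of the coordinates, all 2831 sites fitted inside the chromosomes, and the exact CArG box was found within 100 bp of 4.77% of the maxima and in 1.1% of windows shifted by 3000 bp. Start and stop codon were the outermost ends of the annotated coding sequences. Wilson intervals of shares and exact Poisson intervals of densities have a level of 95% and cover counting error only. A site counts once for each gene in reach. The limit of 5.6 follows the lowest score among the loci that the study lists as targets. It is not the false discovery rate cutoff of the study, since 846 of the 2831 sites reach it, more than the study called significant. No tests were made. The members and lists were chosen with earlier results of these data known.

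Every one of the 49 genes with a site was to be named, and sequences printed for the highest-scoring site of each family and for sites with a score of at least 5.6 or an exact CArG box. Alternatives concerned the score limit, the window, the gene ends, the position of the site, the assignment and the motifs. The window rule and the distance from the start codon were tested on simulated sites. The motif search, the shares and the intervals were not tested in this way. Calculations were done in Python 3.11.15 with pandas 2.3.3, numpy 2.4.6 and scipy 1.17.1, and plots with matplotlib 3.10.9. The subgroups, the repeat at *ARF3* and the printing of *IAA19* were chosen after the values had been seen. The count of sites with either auxin response element core and that of sites with 3 copies of TGTCTC were not planned.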

Additional observations from a re-analysis of the deposited data

How the results depend on the processing

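The counts depended mainly on the score limit. With scores of at least 5.6, 6 of the 49 genes had a site (3 *Aux/IAA*, 3 *ARF* and 0 receptor genes), with 6 sites, of which 3 lay in the first 1000 bp upstream. With scores at or above the median of the list, 10 sites were left and the receptor genes had 0. At or above the upper quartile 5 genes remained with 5 sites, 3 *Aux/IAA*, 2 *ARF* and 0 receptor genes, against 3.94% of all protein-coding genes. A window from 1000 bp upstream to the stop codon left 5 *Aux/IAA* genes and 9 sites in all. The narrower window of 2000 and 500 bp, transcript ends, midpoints, overlap and the nearest gene moved the number of genes to between 12 and 15. Transcript ends added *IAA20* and *ARF19*, and with the nearest gene *IAA31* was lost. A CArG box with 1 mismatch was found at 3 sites in place of 0. Within 50 bp of the maximum TGTCGG was left at 2 sites and the G-box at 0, and within the listed sites the G-box was left at 1. The median score was the same without the *IAA4* site, an alternative added after the data had been seen. No paired analysis was possible because both replicates are merged into a single score per site, and for the same reason no replicate could be left out. What the depth of the libraries limits cannot be said from the list.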
